A study of Homo sapiens with 8 samples.

Results

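The peaks described here are those that an antibody against N4-acetylcytidine (ac4C) still gave in SiHa cells whose NAT10 gene had been knocked out. SiHa is a cervical carcinoma line, and the labels' cell line field says only that the cells are from cervical cancer. All 4556 peaks on chromosomes 1 to 22, X and MT were taken from the list of the knockout cells, which holds 4559. The 3 left out were 1 on chromosome Y and 2 on unplaced scaffolds. The 2 deposited peak lists of the series hold 17487 lines in all, and the list of the cells with intact NAT10 was not set against this one. The knockout cells gave 2 libraries of antibody-captured RNA and 2 of input RNA, from cultures called KONAT10SiHa and numbered as biological replicates 1 and 2. The series has 8 libraries, of which 4 are from SiHa cells without the knockout. No label tells whether the knockout cells are 1 clone or a pool, or how the gene was cut. One list carries a K after the name SiHa and was taken to be the knockout's, though none of the labels says so.

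NAT10 is the RNA acetyltransferase that places ac4C, an acetyl group on the base of cytidine. Its best known substrates are the 18S ribosomal RNA and, with the adaptor THUMPD1, certain transfer RNAs. Acetylation of messenger RNA has been described as well, with the mark placed in repeats of a cytidine followed by 2 other bases. In acRIP-seq, RNA is broken into fragments, those bound by an ac4C antibody are captured and sequenced, and a peak is a stretch where captured fragments outnumber those of the input. A peak is therefore a record of capture, and capture by such an antibody does not by itself show which base was bound.

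The list holds 1 set of peaks for the knockout cells with no read count and no value for a single replicate. Its depth is unknown, and how far a peak varied between replicates cannot be seen. The p, false discovery rate and fold enrichment of a peak are the authors' own values. They serve here only to describe and rank peaks. All intervals are exact 95% binomial (Clopper-Pearson) intervals and cover the counting of peaks or genes alone. The peaks belonged to 3725 Ensembl gene identifiers. Gene names were assigned by position from RefSeq gene spans of GRCh38, and 3126 identifiers (83.9%), with 3842 peaks (84.3%), received 1. Of the peaks, 98.7% lay in a gene span, against 65.3% when all spans were moved by 1 Mb. Named genes were protein-coding in 2910 cases, long noncoding in 128, pseudogenes in 55 and transcribed pseudogenes in 30.

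A small set of peaks lay at transcript starts, where RefSeq gives the sequence. It is shown first because the letters of these transcripts can be read beside the authors' values. Windows of 250 bases before to 50 bases after a start were at hand for 35116 starts of 27305 genes, and 136 peaks touched a window on their own strand. Of these, 65 covered all 50 bases after a start. The 4 sequences that follow are the peaks that ran in 1 block and lay wholly before a start and outside every RefSeq gene span, in the order of their −log10 p. Sequences are RefSeq's on GRCh38, from 5′ to 3′ on the strand of the gene. Capitals mark the C of the motif CNNCNNCNNCNN, that is 4 successive triplets each opening with C.
PLXDC2, chr10:19816239-19816419, plus strand: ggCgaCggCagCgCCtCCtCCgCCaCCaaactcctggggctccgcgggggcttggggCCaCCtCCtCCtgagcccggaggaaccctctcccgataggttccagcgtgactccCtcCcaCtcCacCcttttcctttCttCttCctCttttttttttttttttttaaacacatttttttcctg
SPSB3, chr16:1782616-1782765, minus strand: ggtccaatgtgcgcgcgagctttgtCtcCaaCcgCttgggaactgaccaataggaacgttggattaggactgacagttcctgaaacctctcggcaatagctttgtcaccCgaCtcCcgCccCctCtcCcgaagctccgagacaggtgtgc
AGXT2, chr5:35047955-35048105, minus strand: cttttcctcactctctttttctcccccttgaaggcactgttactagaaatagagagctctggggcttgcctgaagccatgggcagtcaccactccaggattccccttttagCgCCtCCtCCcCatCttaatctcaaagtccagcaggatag
PDAP1, chr7:99408710-99408829, minus strand: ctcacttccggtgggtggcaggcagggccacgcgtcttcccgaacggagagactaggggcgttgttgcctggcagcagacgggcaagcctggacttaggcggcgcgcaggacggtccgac

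The peak before PLXDC2, a plexin domain membrane protein, ended 13 bases before the start and had a fold of 223 and a −log10 p of 54.6. Its sequence was 56.4% G or C and held the motif in several runs. The peak before SPSB3, a SOCS box protein, ended 45 bases before the start, with a fold of 113 and a −log10 p of 27.0. The peak before AGXT2, a mitochondrial aminotransferase, had a fold of 5.13 and a −log10 p of 4.12. The peak before PDAP1, a PDGF-associated phosphoprotein, had a fold of 15.4 and a −log10 p of 3.14 and, as the only one of the 4, held no such run of triplets. Among all windows, stretches of 150 bases just before the start held the motif in 57.3% of cases, those of 120 bases in 51.1% and those of 181 bases in 62.0%, so a match in a peak of this length was common everywhere.

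Peaks that covered the first 50 transcribed bases allowed the same reading inside the transcript. The first 30 bases are shown for the 5 of them with the largest −log10 p, with the C of the motif, as found in the first 50 bases, in capitals.
PPP4C, plus strand of chromosome 16: gccggaagtaggagCggCggCggCggCggC
LAPTM5, minus strand of chromosome 1: agtgtctcagaggaggggaCggCagCacCa
IFITM1, plus strand of chromosome 11: gaaacgacaggggaaaggaggtctcactga
EPB41, plus strand of chromosome 1: gtcagtgcaggtggaggccccggcggggca
B2M, plus strand of chromosome 15: attcctgaagctgacagcattcgggccgag

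PPP4C encodes a catalytic subunit of protein phosphatase 4, and its start peak had a fold of 54.4 and a −log10 p of 143. LAPTM5, a lysosomal membrane protein of blood cells, had a fold of 554 and a −log10 p of 138. IFITM1, an interferon-induced membrane protein, had 11.0 and 108. EPB41, a membrane skeleton protein of red cells, had 60.1 and 95.3. B2M, the light chain of HLA class I, had 3.59 and 54.9. Of these 5, PPP4C and LAPTM5 showed motif C within the bases printed. In LAPTM5 the last base of the motif, which may be any base, falls just after them. Over the 65 fully covered starts, 20 (30.8%, interval 19.9 to 43.4) held the motif in the first 50 bases, against 25.7% of all windows. Read on the opposite strand, as a comparison of base make-up, the motif was in 56.9% of the covered starts and in 34.8% of all windows. Cytosine made up 28.3% of the covered bases and 28.0% of all windows. The forward share at covered starts thus had an interval that held the share of all starts.

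NAT10 itself, on chromosome 11 from 34105629 to 34146908, had 0 peaks. Expression levels are not part of the list, so this says nothing of how much NAT10 RNA the cells held and does not check the knockout.

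The peaks with the smallest p lay in abundant nuclear and cytoplasmic noncoding RNAs and in heat shock messenger RNA. The −log10 p of all peaks had a median of 5.45 (quartiles 3.14 and 11.8) and ran from 1.31 to 39100, and 23 p-values were listed at 0. The strongest peaks were 3 in the span of MALAT1, a nuclear-retained long noncoding RNA, with −log10 p of 39100, 36500 and 10100. The first shares bases with each of the other 2, which do not overlap each other, and the identifier took no name because the antisense transcript TALAM1 spans the same place. The span of RN7SK, the 7SK RNA that holds the elongation factor P-TEFb inactive, carried 1 peak for each of 2 identifiers, with −log10 p of 22300 and 19500. The span of RN7SL1, the RNA of the signal recognition particle, carried 4560 and 4500 in the same way, and that of its copy RN7SL2 had 1090. Reads of such near-identical copies can be shared between them, so their split is uncertain. RPPH1, the RNA of ribonuclease P, carried peaks of 518 and 328 under 2 identifiers.

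Among named genes, HSP90AA1, the inducible cytosolic HSP90 chaperone, had 1 peak with a −log10 p of 16400 in the last part of its span. HSP90AB1, the constitutive form, followed with 818, and its second peak had 16.6. HBB, the beta chain of adult haemoglobin, had 2 peaks with 2010 and 1840. The mitochondrial gene ND2 had 1470. ZNF528-AS1 had 513, IL7R, the interleukin 7 receptor, had 480, and NPM1, the nucleolar chaperone nucleophosmin, had 450. XPNPEP3, a mitochondrial aminopeptidase, had 420, and FOXRED1, a complex I assembly factor, had 402. Over all peaks, fold and −log10 p rose together (Spearman correlation 0.511). The 77 peaks with a −log10 p above 100 had a median fold of 23.3. At the very top this did not hold: 13 of the 20 strongest peaks had a fold under 6. The folds were 4.94, 4.77 and 3.08 in the MALAT1 span, 3.06 and 2.85 in the RN7SK span, 5.34 in HSP90AA1 and 2.45 in ND2.

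The folds ran from 1.07 to 1670 with a median of 12.8 (quartiles 7.18 and 25.6), and 183 peaks were above 100. The highest belonged to XPNPEP3 with 1670. HBB followed with 1290 and 1000, MBP, a myelin protein, with 910, and HBA2, the alpha chain of adult haemoglobin, with 887. LOC100130992 had 856, TXNDC11-AS1 603, DYRK1A, a protein kinase, 592, FAM157D 567, NCKAP5 538 and APOB, the structural protein of low-density lipoprotein, 497. Several of these are genes that an epithelial line is not known for. Of 10 markers of cells absent from such a line, 6 had a named peak: HBB, HBA2, HBA1 (fold 118), the endothelial PECAM1 (56.4), the leukocyte PTPRC (23.1) and the hepatic ALB (10.3). Among the others, CD3E, GFAP and MYH6 had 0. Of 8 epithelial and squamous markers, KRT19 (61.5) and KRT18 (3.96) had a named peak, and EPCAM, KRT5, CDH1, TP63 and SFN had 0. A further 3 peaks touched the span of KRT8 without taking its name, 1 of them with a fold of 2.37 and a −log10 p of 367. The −log10 p was 42.2 in KRT19 and up to 30.5 in KRT18. VIM, a mesenchymal intermediate filament, had 2 named peaks with folds of 23.1 and 8.55. How far RNA of other cells entered the libraries was not tested, since the list holds no level of any gene.

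Fold and p were tied to each other in a large part of the list. In 2074 peaks (45.5%, interval 44.1 to 47.0) the fold was a whole multiple of 2.564 within rounding, and the p followed from that multiple. The multiples ran from 3, a fold of 7.69 with a −log10 p of 1.42 in 206 peaks, to 651 in XPNPEP3, and 109 different multiples occurred. Their −log10 p lay within 0.362% of that of 1 binomial formula. In it, k or more of k + 1 draws are successes with a chance of 22.45% each, and k is the multiple. With 2, 3, 4 or 5 in place of the 1, the same formula and step gave the fold and p of 517, 316, 218 and 163 further peaks, so that 72.2% of all peaks had values that followed from 2 whole numbers, 1 of them at most 5. Which quantities these whole numbers count is not stated in the sources used here. The 2074 peaks had a higher median fold than the others (20.5 against 7.69) and a lower median −log10 p (4.33 against 6.56). They made up 80 of the 100 highest folds. They also made up 810 of the 1141 peaks (25.0%, interval 23.8 to 26.3) whose false discovery rate was above 0.05. HBB was not among them, while XPNPEP3, MBP, HBA2 and all 8 peaks of APOB were.

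**Figure D1:**
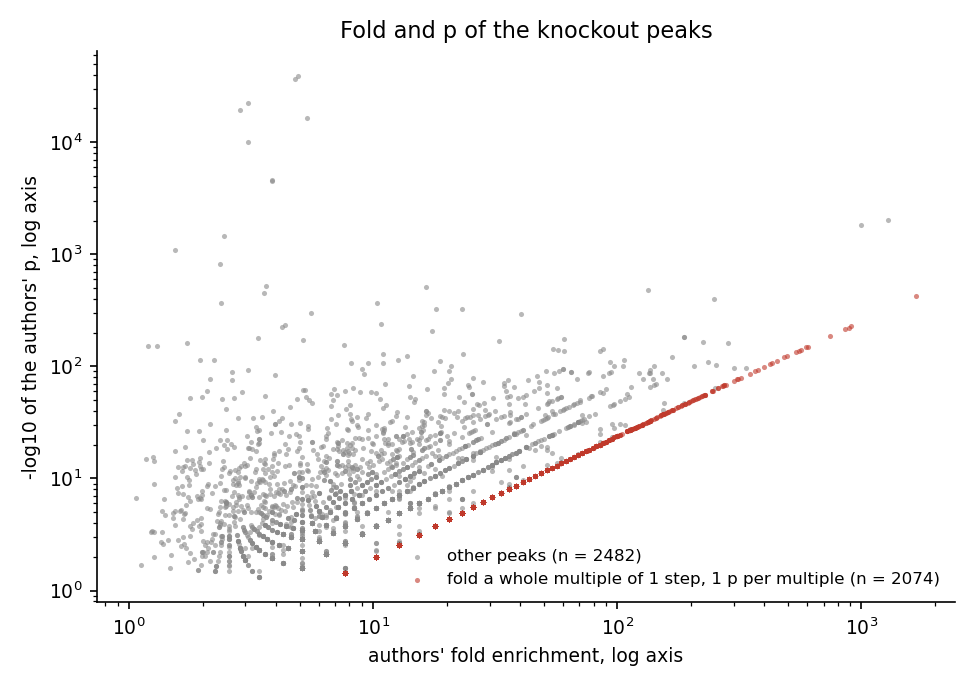
Each point is 1 of the 4556 knockout peaks, with the authors' fold enrichment on the horizontal log axis and −log10 of the authors' p on the vertical log axis. The 2074 peaks in red form a single lower edge on which each fold goes with 1 p, the first of several parallel lines, while the peaks of highest −log10 p (39100 to 10100) stand at folds between 2.85 and 5.34.

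Most transcripts with a peak had only 1. Of the 3725 identifiers, 3068 had 1 peak, 537 had 2, 92 had 3 and 28 had 4 or more, a mean of 1.22. Those with more than 1 numbered 657 (17.6%, interval 16.4 to 18.9) and held 1488 peaks. Peaks of the list were not all separate, since 217 shared bases with another peak and 178 of them with a peak of another identifier. The most peaks belonged to genes of very long coding sequence. APOB had 8, with folds from 10.3 to 497 and a −log10 p from 1.98 to 124, spread from 27.3% to 96.4% of its span. FN1, the matrix glycoprotein fibronectin, had 7 with folds from 15.4 to 162. MACF1, a linker of microtubules and actin, had 7 with folds from 6.41 to 228. AHNAK, a giant scaffold protein, had 6, all between 15.8% and 24.2% of its span, and its strongest had a −log10 p of 241. Its relative AHNAK2 had 6 between 57.2% and 79.7%.

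The other genes near the top differed in how their peaks were spread. PHF3, a PHD finger protein of the transcription machinery, had 6 peaks. WNK1, a kinase that controls ion transport, had 6, from 0.736% to 98.8% of the span. IGFN1, a muscle protein of immunoglobulin and fibronectin repeats, had 5 within 48.2% to 54.0% of the span, among them 3 of the widest peaks of the list. SYNE2, a linker of nucleus and cytoskeleton, had 5 with folds of only 2.08 to 10.3. Unnamed identifiers in the spans of MUC3A and of SRRM2 had 7 and 5 peaks. The peaks of AHNAK, AHNAK2, WNK1 and SYNE2 held 0 on the lower edge of fold and p, against 8 of 8 for APOB, 6 of 7 for FN1 and 6 of 7 for MACF1.

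Peak widths, taken as the sum of the blocks, were nearly constant. The median was 180 bases (quartiles 151 and 181) and the range 107 to 923, for 801799 bases in all. A width of 180 or 181 bases was found in 2400 peaks (52.7%) and one of 150 or 151 in 1229 (27.0%). Only 63 peaks (1.38%) were wider than 300 bases. The widest, 923 bases on chromosome 21 from 8437629 to 8438551 on the minus strand, lay in the span of the 18S ribosomal RNA gene RNA18SN1. It had a fold of 153 and a −log10 p of 87.9, and its identifier took no name. The strand of that ribosomal gene was not in the tables used here. HBA2 had a peak of 827 bases in a gene span of 835, and HBA1 one of 537 in a span of 843. IGFN1 (661), F5, the clotting factor V (600), TENT5C, a poly(A) polymerase (600), HMGN4, a nucleosome-binding protein (534), EML4, a microtubule-binding protein (480), TNFRSF1B, a TNF receptor (479), and MUC7, a salivary mucin (477), followed.

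Several blocks, the form in which a peak across splice junctions would be written, were found in 1424 peaks (31.3%, interval 29.9 to 32.6). Of these, 1075 had 2 blocks, 311 had 3, 36 had 4 and 2 had 5. The gaps between blocks had a median of 1391 bases (quartiles 439 and 3510), of the order of introns, and the longest was 236157. The shortest was 1 base, too short for an intron, so not every gap is a splice junction. Width did not go with the number of blocks, with medians of 180 bases for single-block and for several-block peaks.

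**Figure D2:**
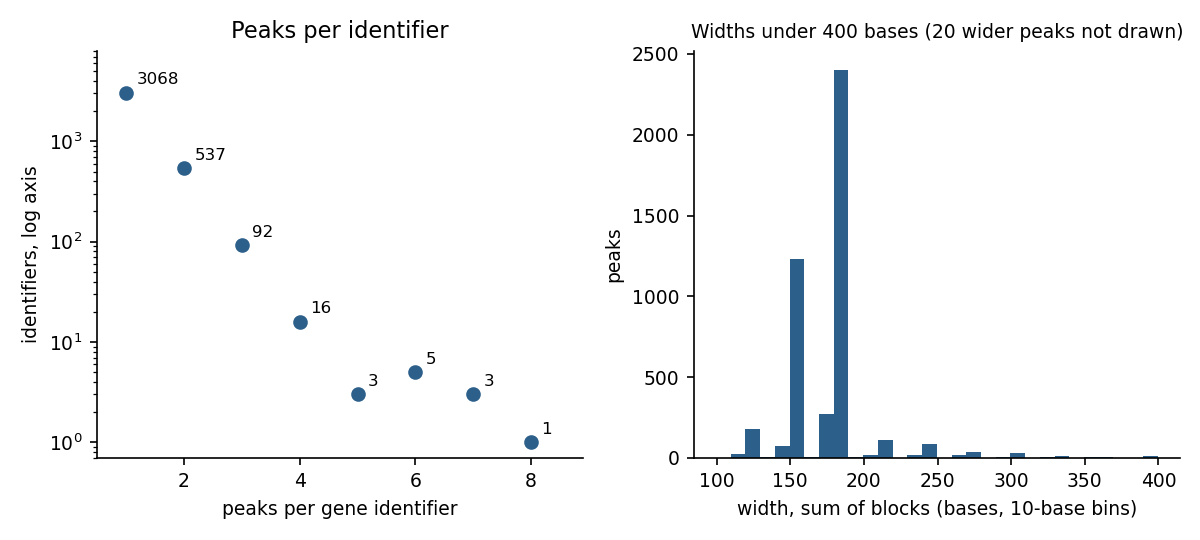
Left, the number of gene identifiers (log axis) with 1 to 8 knockout peaks, each count printed beside its point: 3068 had 1 and 1 had 8. Right, peaks by width in bins of 10 bases up to 400 bases, with the tallest bars at 180 and 150 bases.

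The peaks leaned to the 3′ end of the gene span. Place was the centre of the peak within the span of its named gene, introns included, from 0% at the 5′ end to 100% at the 3′ end. The median was 77.0% (interval 75.4 to 78.4). Cut into 10 equal parts, the span held 32.1% of peaks in its last 10% (interval 30.6 to 33.6), 14.3% in the part before it and 7.96% (7.13 to 8.87) in its first 10%. The part after the first held the fewest with 4.37%. Within 1000 bases of the start lay 8.43% of peaks, and within 1000 bases of the end 14.4%. The lean grew with the length of the span: the last 10% held 18.5% of peaks in the shortest spans, 35.7% in the middle ones and 42.1% in the longest, each group being the peaks of a similar number (1280 or 1281). The share in the last 10% of the span also differed by blocks. Peaks of 1 block had 40.5% there and a median place of 84.1%. Peaks of several blocks had 14.3% and 62.4%, and the intervals of the shares did not overlap. A peak across a splice junction cannot lie within a last exon alone. This difference is therefore partly set by the number of blocks and does not show where the lean arose. Exons were not at hand, so coding sequence and untranslated regions were not told apart.

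Examples at the 3′ end were CDK6, a cell cycle kinase, whose peak centre lay at 99.9% of the span, KMT2A, a histone H3 lysine 4 methyltransferase, at 99.8%, MTOR at 99.6% and HNRNPM at 99.5%. At the 5′ end, DDX1, an RNA helicase, lay at 0.192%, CDK19 at 0.359%, and SNRPD3, a core protein of the spliceosome, at 0.712%. These are the strongest peak of each gene.

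**Figure D3:**
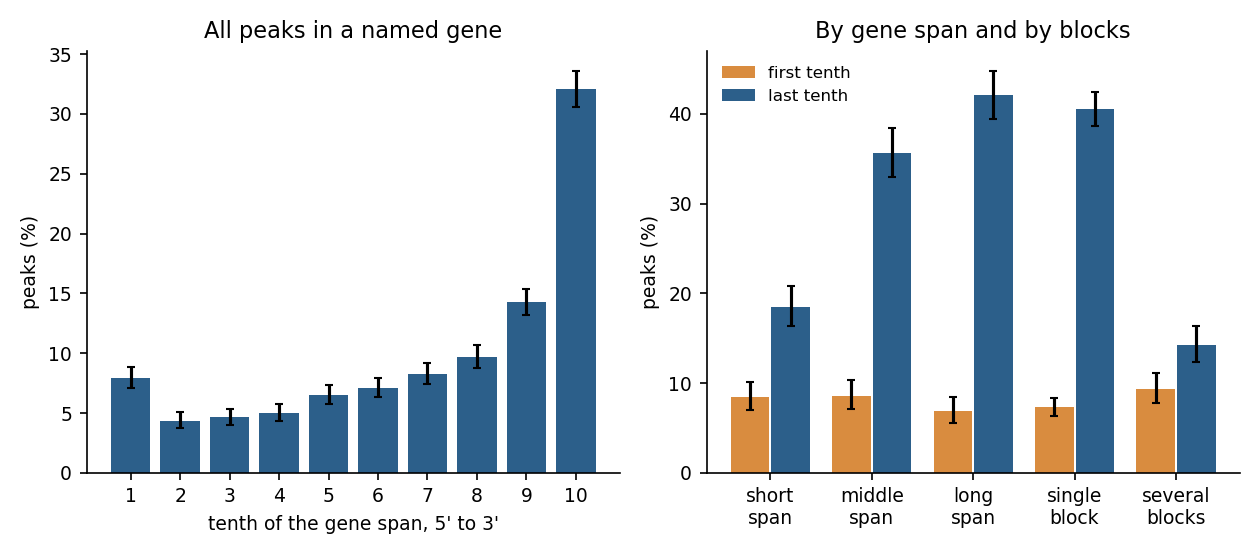
Left, the share of the 3842 peaks in named genes whose centre lay in each of 10 equal parts of the gene span, 5′ to 3′, with exact 95% intervals: the last held 32.1%. Right, the shares in the first and last 10% for short, middle and long spans and for peaks of 1 or several blocks, where the last 10% went from 18.5% to 42.1% with span and from 40.5% to 14.3% with blocks.

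Of 19987 protein-coding genes, 2910 (14.6%, interval 14.1 to 15.1) had a named peak, and 3253 were touched by a peak of any identifier. Longer spans had a peak more often. The share was 6.71% in the shortest 20% of spans, 11.6%, 15.4% and 18.2% in the groups between and 20.9% in the longest 20%. Of genes with a peak, several peaks were found in 14.2% of the shortest group and 23.5% of the longest. By chromosome the share was highest on chromosome 5 (18.5%, interval 16.0 to 21.2) and close to it on 20, 14 and 12. It was lowest on X (8.49%, interval 6.7 to 10.6) and on 11 (9.92%, interval 8.34 to 11.7).

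**Figure D4:**
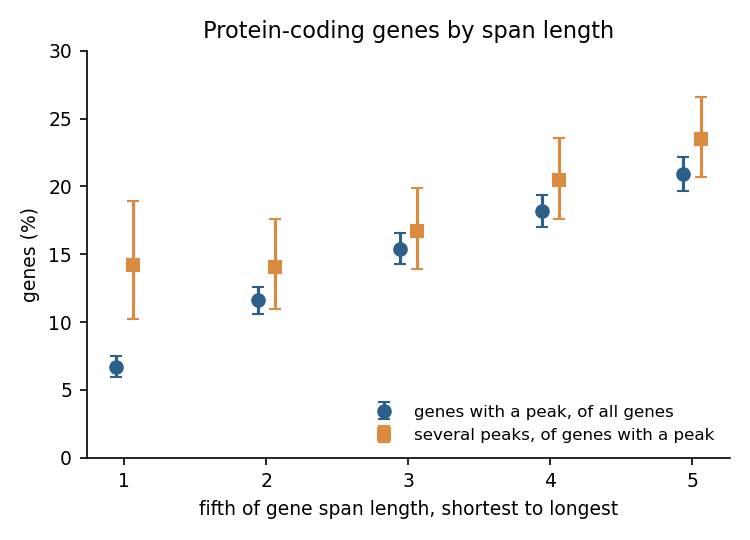
Protein-coding genes in 5 groups of equal size by gene span, with the share that had a knockout peak (circles, 6.71% to 20.9%) and, among those, the share with several peaks (squares, 14.2% to 23.5%). Bars are exact 95% intervals.

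The families below are read against the 14.6% of all protein-coding genes with a peak. Of 71 families and gene lists, 70 had at least 1 member with a peak. Of the 69 with 10 or more members, 18 had an interval wholly above 14.6% and 11 wholly below it. Most of the 11 are families of noncoding RNA, which are not part of that share, so their place below it is not a like comparison. No peak of the list could lie within a transcript as short as a transfer RNA. Against the share of all protein-coding genes under the same setting, 10 of these 18 stayed above with −log10 p above 8, and 13 without the peaks on the lower edge of fold and p. Of the 11, 10 stayed below under each of these settings. The ZBTB genes, integrins and laminins did not stay above under either. With −log10 p above 8, those lost also included DEAD and DEAH box helicases, lysine demethylases, cell cycle genes and receptor tyrosine kinase genes. With spans on the known same strand only, SR proteins, ubiquitin-specific proteases and interferon genes were among those that did not stay above. A share reflects how many members were transcribed and how long they are as well as capture, and the list gives no expression level, so the part of these in the shares was not tested.

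Genes of protein synthesis were mixed. Of 87 cytosolic ribosomal protein genes, 19 (21.8%, interval 13.7 to 32.0) had a peak. The strongest was in RPL10 with a fold of 19.5 and a −log10 p of 56.4, then RPS2 with 5.62 and 46.8, and RPS18 with 11.0 and 42.1. Mitochondrial ribosomal proteins had 6 of 77 (7.79%), led by MRPL19 with a fold of 66.7. Translation initiation factors had 12 of 55 (21.8%). EIF5B, which joins the ribosomal subunits, had 3 peaks and a −log10 p of 171, and EIF3J had 2 and 167. Among 14 elongation factor genes, EEF2K and EEF2 had a peak each. Ribosome biogenesis factors of the nucleolus, where NAT10 resides, had 17 of 42 (40.5%, interval 25.6 to 56.7). NPM1 led with 450, NOP56, a box C/D snoRNP protein, had 95.6, and RRP1B and NCL had 27.4 each.

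Genes of RNA processing had peaks more often than all genes in several groups. Core splicing factors had 17 of 39 (43.6%, interval 27.8 to 60.4). SNRPD3 had a fold of 274, SON, a nuclear speckle protein, had 2 peaks with a −log10 p of 50.5, and SF3A2 had 2 with 39.6. SR proteins had 5 of 12 (SRSF4, SRSF2, SRSF11, SRSF5 and SRSF6), and all 5 passed a false discovery rate of 0.05. DEAD and DEAH box helicases had 16 of 53 (30.2%, interval 18.3 to 44.3), led by DDX6 with 28.5 and DDX1 with 17.7. The hnRNP proteins had 7 of 26 (26.9%, interval 11.6 to 47.8), with the highest fold in HNRNPDL (167). RNA modification genes had 9 of 39 (23.1%, interval 11.1 to 39.3). Among them were ADAR, the A-to-I editing enzyme, with 3 peaks, RBM15 and ZC3H13 of the m6A writer complex, the m6A reader YTHDF3 and the RNA-binding YBX1, whose peak had a fold of 2.15 and a −log10 p of 76.7.

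Chromatin regulators stood well above all genes when all peaks were counted. Lysine methyltransferases had 15 of 26 (57.7%, interval 36.9 to 76.6). NSD2 had a fold of 259, SETD1B 3 peaks with up to 43.5 in −log10 p, and KMT2A 2 peaks. Lysine demethylases had 9 of 18, with 3 peaks each in KDM5B and KDM5A. Only 2 of the 18 had a peak with −log10 p above 8, and the demethylases did not then stay above all genes. Chromatin remodelling and coactivator genes had 22 of 47 (46.8%, interval 32.1 to 61.9), led by SIN3A with 70.7 and TRRAP with 64.4, at folds of 20.2 and 251. Replication-dependent histones, which lack introns and a poly(A) tail, had 2 of 69 (2.9%, interval 0.353 to 10.1): H2AC20 and H3C6, both with a fold of 10.3.

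The highest share of any family was in the giant linkers and scaffolds, where 30 of 37 (81.1%, interval 64.8 to 92.0) had a peak and 19 had several. This set was chosen with earlier results of these data known, so its share and interval only describe the genes picked. Its members held 78 peaks, with a median fold of 9.19 against 12.8 for all knockout peaks. After AHNAK, FN1 and MACF1, MKI67, the proliferation antigen Ki-67, had 2 peaks with up to 93.1, and AKAP13, an anchoring protein of kinase A, had 3. Laminins, the heterotrimers of basement membrane, had 6 of 12, of which LAMA5 had 2 peaks and a −log10 p of 49.7. Integrins, their receptors, had 9 of 27 (33.3%, interval 16.5 to 54.0), with 3 peaks in ITGA3. Collagens had 7 of 44, at the share of all genes, with the highest fold in COL1A2 (121). Keratins had 5 of 55 (9.09%), cadherins 1 of 23 (CDH11) and protocadherins 1 of 65 (PCDH7). Peaks of any identifier touched 11 of the 65 protocadherins, so their low count depends on the rule by which names were given. Kinesins had 8 of 39 (KIF1C with 35.3), myosin heavy chains 8 of 40 (MYO9B with 3 peaks and 54.2) and tubulins 6 of 27, whose intervals all held 14.6%.

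**Figure D5:**
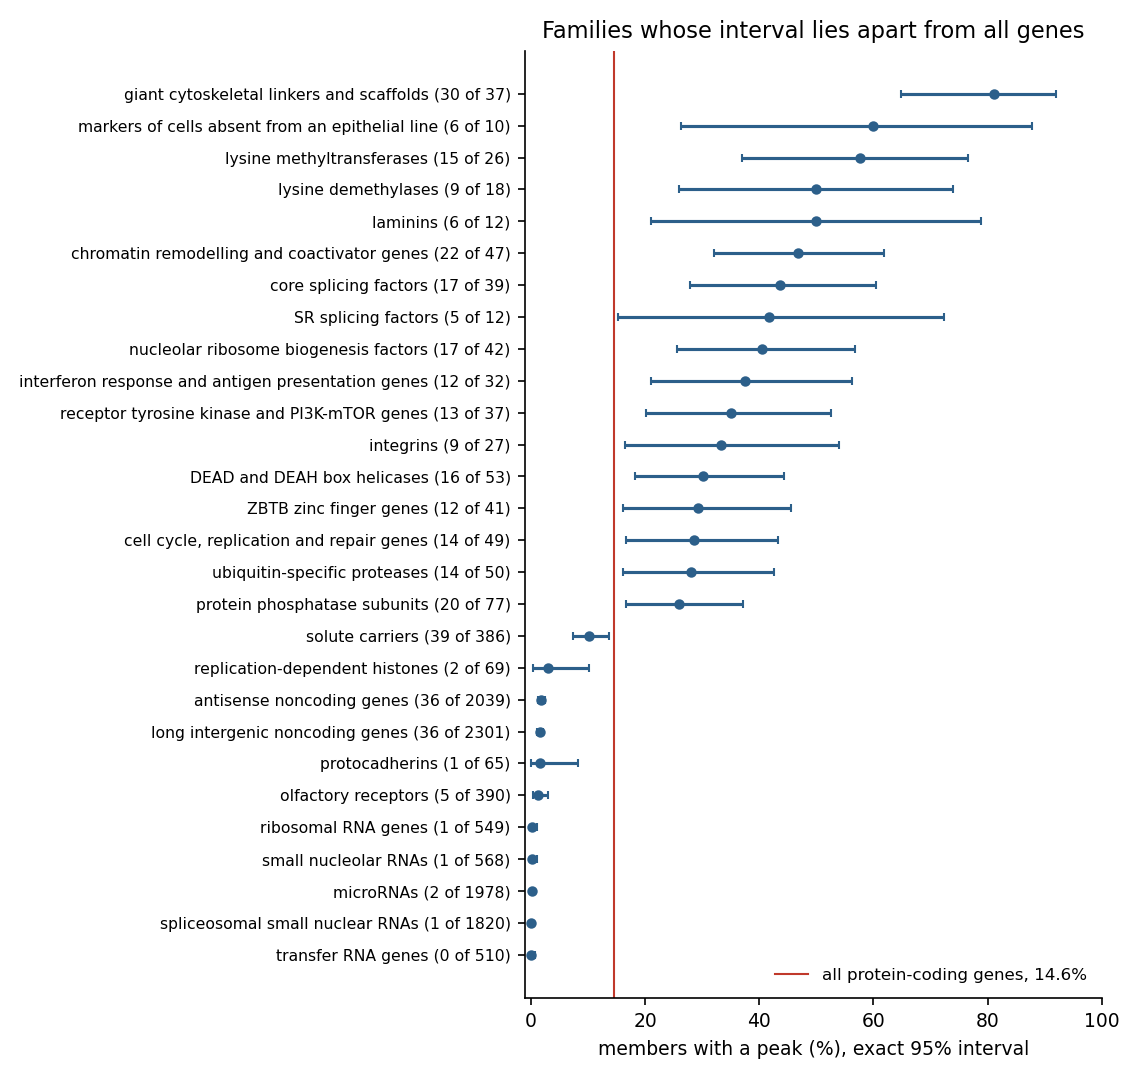
Families of at least 10 members whose exact 95% interval did not hold the 14.6% of all protein-coding genes (red line), with the share of members that had a knockout peak. Giant linkers and scaffolds, a list chosen with earlier results of these data known, stand at 81.1% and transfer RNA genes at 0%. The noncoding RNA families are not part of the share at the red line.

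Signalling genes followed. Receptor tyrosine kinase and PI3K-mTOR genes had 13 of 37 (35.1%, interval 20.2 to 52.5). RICTOR, a subunit of mTOR complex 2, had a −log10 p of 40.2, IRS2 2 peaks with 13.6 and MTOR 1 with 6.42. RAB GTPases had 14 of 63 (22.2%, interval 12.7 to 34.5), led by RAB7A. Protein phosphatase subunits had 20 of 77 (26.0%, interval 16.6 to 37.2). PPP4C had the largest −log10 p of these, 143, and PPP2R2A the highest fold, 449. MAP kinase cascade kinases had 9 of 43, led by MAP4K3 with a fold of 136. Notch and Wnt genes had 5 of 38: TLE3, a corepressor, with 4 peaks, the receptors NOTCH2 and NOTCH1, the ligand WNT5A and RBPJ, the DNA-binding protein of Notch signalling. Cyclins had 4 of 17 and cyclin-dependent kinases 6 of 21, among them CCND1 with 2 peaks and CDK12 with 3. Genes of the cell cycle, replication and repair had 14 of 49 (28.6%, interval 16.6 to 43.3). XRCC5, which encodes Ku80, had 76.2, and PLK1, a mitotic kinase, had 2 peaks and 48.6.

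Among chaperones, heat shock proteins had 9 of 31 (29.0%, interval 14.2 to 48.0). HSP90B1, the HSP90 of the endoplasmic reticulum, had a −log10 p of 115 with a fold of 2.22, and HSPB1 35.5 with 19.2. Their HSP40 partners had 6 of 42, the share of all genes, with 130 for DNAJB1 and 75.1 for DNAJA2. In protein turnover, ubiquitin-specific proteases had 14 of 50 (28.0%, interval 16.2 to 42.5), led by USP31 and USP24. F-box proteins had 13 of 62, proteasome subunits 5 of 39, TRIM proteins 10 of 73 and ubiquitin-conjugating enzymes 3 of 34. TRIM56 had 4 peaks and the largest −log10 p of these groups, 143.

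In metabolism, glycolysis and lactate genes had 7 of 22 (31.8%, interval 13.9 to 54.9). PFKL, the liver form of phosphofructokinase, had a fold of 156, the glucose transporter SLC2A1 41.0, and LDHB 14.9. Fatty acid and sterol synthesis genes had 7 of 28, and FASN, the fatty acid synthase, had 4 peaks with up to 99.8 in −log10 p. Nuclear genes of oxidative phosphorylation had 5 of 37 (13.5%), none with a −log10 p above 7.11. Solute carriers, the largest transporter family, had 39 of 386 (10.1%, interval 7.28 to 13.6), led by the mitochondrial iron importer SLC25A37 with 109. The mitochondrial chromosome had 4 peaks in 3 genes. ND2, a subunit of complex I, had a fold of 2.45. ND1, another, had folds of 1.99 and 1.3 with −log10 p of 53.7 and 153. COX1, of complex IV, had a fold of 1.2 and a −log10 p of 152. All 4 folds lay below the lower quartile of the list, 7.18, and all 4 −log10 p above the upper quartile, 11.8.

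Interferon response and antigen presentation genes had 12 of 32 (37.5%, interval 21.1 to 56.3). HLA-E had 2 peaks with a fold of 154 at its strongest, HLA-B 15.4, NLRC5, the activator of HLA class I transcription, 17.9, and TAP1, a peptide transporter, 66.7. Reads of the HLA genes can be shared between them, so the split is uncertain. Transcription factor families were near or below the share of all genes, apart from ZBTB genes with 12 of 41 (29.3%, interval 16.1 to 45.5). ZNF genes had 66 of 509 (13.0%, interval 10.2 to 16.2), and 36 of their 75 peaks lay on the lower edge of fold and p. FOX genes had 8 of 51, among them FOXA1 with 2 peaks, HOX genes 3 of 39 and SOX genes 1 of 19. Peaks of any identifier touched 8 of the 39 HOX genes. Olfactory receptors had 5 of 390 (1.28%, interval 0.418 to 2.97).

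Noncoding RNA was rare among named genes. Long intergenic noncoding genes had 36 of 2301 (1.56%, interval 1.1 to 2.16) and antisense genes 36 of 2039 (1.77%, interval 1.24 to 2.44), and among them LINC00504 had a fold of 279. Peaks of any identifier touched 42 long intergenic and 71 antisense genes. Of 510 transfer RNA genes, 0 had a peak, which allows a share of up to 0.721%. Small nucleolar RNAs had 1 of 568 and spliceosomal small nuclear RNAs 1 of 1820. These were SNORD3B-2 and RNU1-4, and both peaks had a false discovery rate above 0.05. Ribosomal RNA genes had 1 of 549, the pseudogene RNA18SP5 with a fold of 25.6, although 6 were touched. Besides the 923-base peak, 2 weaker peaks on the minus strand touched the span of the 18S copy RNA18SN3, with folds of 7.69 each and false discovery rates above 0.05. The shortest peak of the list, 107 bases with a fold of 33.3, covered SNORA22. Peaks of 3 identifiers lay on SNORA16A within its host gene SNHG12. The kit named in the labels is for messenger RNA, and peaks of at least 107 bases cannot lie within a transcript as short as a transfer RNA, so the low counts of small RNA families say nothing of their acetylation. Copies of small RNAs and ribosomal RNA are near-identical, and how reads were split between them is not stated.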

How the data were processed

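RNA captured with an ac4C antibody and input RNA were sequenced with a stranded messenger RNA kit, per the labels' protocols. Build GRCh38 (hg38) and FastQC 0.11.7 come from the submitters' processing notes. Not given in the sources used here are the aligner, the peak caller, the annotation and how replicates were joined. Per the file headers, the authors deposited for each peak a score, which holds a p-value, log10 of p, log10 of a false discovery rate, and an enrichment over an unstated reference, which is a linear ratio (fold). The log10 values were treated as scores, and their sign was turned. Per the labels, samples fall into 4 groups of 2.

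Widths are sums of blocks. A RefSeq span known to lie on the opposite strand was ignored. An identifier took a name when its peaks touched 1 remaining span alone, with 90% or more of the peak bases inside it, and no other identifier claimed it. Of the rest, 240 identifiers touched several spans, 178 shared one, 123 lay outside all and 58 had too few bases. Strand was known for 27197 of 59135 genes. Of 500 simulated peaks in known genes, 469 took the right name, 2 another and 29 none. These genes were protein-coding, of known strand and not of very short span, and each had 1 peak of 1 block away from the span ends. The check does not cover genes of unknown strand, peaks of several blocks, peaks near the ends or noncoding genes. Genes were named in the text by rank: the 10 with most peaks, smallest p, highest fold and widest peak, the mitochondrial genes, and up to 6 per family by p. Members, families and lists were chosen with earlier results of these data known. Some genes and 1 family that these rules give are not reported here. No test over samples was possible. Python 3.11.15, pandas 2.3.3 and SciPy 1.17.1 were used. Alternatives were stricter thresholds, merged peaks, other places within the peak and other naming by strand.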

Additional observations from a re-analysis of the deposited data

How the results depend on the processing

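No result rests on replicates, so none could be left out, and the depth behind the peaks is unknown. No paired analysis was possible because the list holds 1 value per peak for both replicates together. Naming by Ensembl identifier was not run, since no table pairs these identifiers with symbols here. Of 48 recomputed values, single families left out, 26 kept to within 1.5 times or the interval and 22 moved. They are counts, means, medians and shares, which have no direction to change. With −log10 p above 8, there were 1632 peaks of 1468 identifiers, 1.11 peaks each, 9.2% with more than 1, and 5.99% of protein-coding genes with a peak. With a false discovery rate of at most 0.05, the values were 1.19 peaks each, 15.2% with more than 1, 32.7% of peaks with several blocks and 11.6% of genes. Without the peaks on the lower edge of fold and p, chosen by fold and p and not by width, there were 2482 peaks of 2141 identifiers, 1.16 peaks each, 12.6% with more than 1, 36.2% with several blocks, 29.8% in the last 10% of the span, a median place of 75.3% and 8.79% of genes. Of 71 families, the count of members with a peak moved by over 1.5 times in 58 with −log10 p above 8, in 27 without the lower edge, in 14 with spans on the known same strand only, in 5 with the false discovery rate and in 3 with spans on either strand. With −log10 p above 8, chromatin remodelling genes went from 22 to 9, giant linkers from 30 to 15, core splicing factors from 17 to 9, ZNF genes from 66 to 20, solute carriers from 39 to 20 and heat shock proteins from 9 to 8. The start-to-end width had a median of 181. By the 5′ end of the peak the first 10% of the span held 10.1%, and by the 3′ end the last held 34.4%. The share of genes was 12.6% with spans on the known same strand only and 13.2% with spans on either strand. The last was chosen after seeing the data for the place in the span, where it moved nothing beyond the interval.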

Other observations

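Beside the fixed markers, genes known from white blood cells recurred among the knockout peaks, and 4 are given here that were chosen after their values were seen. CSF3R, the receptor of granulocyte colony-stimulating factor, had 4 peaks with folds from 12.8 to 51.3 and a −log10 p of up to 52.1. CYBB, a subunit of the phagocyte oxidase, had 4 with folds from 2.21 to 51.3. CXCR2, a chemokine receptor of neutrophils, had 2 with folds of 35.9 and 169, of which one was 420 bases wide. LILRB1, an inhibitory receptor of leukocytes, had 1 with a fold of 97.4. The list holds no expression level of these genes.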
